A study of Mus musculus with 72 samples.

Results

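The 10 genes described here act in red cell formation and were measured in the blood of irradiated mice: Gata1, Klf1, Tal1, Nfe2, Zfpm1, Lmo2, Gfi1b, Epor, Ahsp and Mta3. They were chosen by name, and each was read from its brightest detected probe on a one-colour array. All 10 had a detected probe, out of 16098 genes that did, and all 10 were well above background and below saturation on all 72 arrays. The animals were young adult male C57BL/6 mice, and each array held globin-reduced RNA from the whole blood of 1 mouse, drawn by cardiac puncture. Mice were sham-irradiated or exposed once to accelerator-made neutrons of mixed energies, at 0.25 Gy or 1 Gy, or to x-rays, at 1 Gy or 4 Gy, and they were bled at day 1, day 3 or day 7. By the paper, the neutron beam also delivered gamma rays, at a lower dose rate than the neutrons. The x-rays were given at a far higher dose rate than the neutrons. The controls numbered 5 at day 1, 5 at day 3 and 6 at day 7. The irradiated groups at day 1 held 6 mice after 0.25 Gy of neutrons, 6 after 1 Gy of neutrons, 6 after 1 Gy of x-rays and 5 after 4 Gy of x-rays. At day 7 they held 5, 6, 5 and 6 mice in the same order, and at day 3 there were 6 mice after 0.25 Gy of neutrons and 5 after 1 Gy of x-rays. No other strain, sex or genotype was used, so the values describe this strain and these doses only.

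Red cells form when stem and progenitor cells switch on a small set of transcription factors. GATA1, the zinc finger factor that gives the lineage its identity, binds DNA with its cofactor FOG1 (gene Zfpm1) and with a complex that holds TAL1 and the bridging protein LMO2. KLF1 switches on the adult beta-globin gene and many membrane genes. GFI1B represses genes as cells mature, and NF-E2 p45 (gene Nfe2) acts on the globin locus. EPOR is the receptor through which erythropoietin keeps progenitors alive, AHSP is the chaperone of free alpha-haemoglobin, and MTA3 is a subunit of the NuRD repressor complex that FOG1 recruits. Blood carries RNA of this programme in reticulocytes, the youngest red cells, which no longer have a nucleus. GATA1, TAL1, GFI1B, NF-E2 and FOG1 also act in megakaryocytes, so platelets can carry their RNA as well.

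The RefSeq promoter table (GRCm38.p6) held promoters for 6 of the 10 genes, each running from 250 bases before to 50 bases after the start. Tal1 had 2 of the 7 promoters. Nfe2, Lmo2, Ahsp and Mta3 had no entry. The windows were searched on both strands for the GATA core GATAA and for CCNCNCCC, the box that KLF1 is known to read. GATAA lay in 4 of the 7 promoters and in 25.4% of all 32851 promoters of the table. CCNCNCCC lay in 5 of the 7 promoters and in 49.5% of all promoters, and some of its matches overlapped one another. The 250 bases before the start are shown for 2 genes called at day 7, Klf1 and Zfpm1, and for 2 called at day 1, Epor and Gfi1b. They read 5′ to 3′ on the strand of the gene, and capitals mark the matches to either motif on either strand. The regions are chr8:84901732-84901981 on the plus strand for Klf1, chr8:122281891-122282140 on the plus strand for Zfpm1, chr9:21963577-21963826 on the minus strand for Epor and chr2:28621983-28622232 on the minus strand for Gfi1b.
Klf1: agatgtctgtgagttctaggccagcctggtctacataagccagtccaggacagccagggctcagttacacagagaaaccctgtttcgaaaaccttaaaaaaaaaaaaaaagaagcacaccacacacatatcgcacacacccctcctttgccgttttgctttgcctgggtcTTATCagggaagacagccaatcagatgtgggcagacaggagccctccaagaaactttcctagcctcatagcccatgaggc
Zfpm1: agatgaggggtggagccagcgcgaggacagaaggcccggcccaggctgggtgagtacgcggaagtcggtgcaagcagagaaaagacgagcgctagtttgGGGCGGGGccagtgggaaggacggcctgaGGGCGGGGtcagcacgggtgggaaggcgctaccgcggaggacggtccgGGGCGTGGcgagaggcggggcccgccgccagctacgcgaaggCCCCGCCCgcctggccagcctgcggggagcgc
Epor: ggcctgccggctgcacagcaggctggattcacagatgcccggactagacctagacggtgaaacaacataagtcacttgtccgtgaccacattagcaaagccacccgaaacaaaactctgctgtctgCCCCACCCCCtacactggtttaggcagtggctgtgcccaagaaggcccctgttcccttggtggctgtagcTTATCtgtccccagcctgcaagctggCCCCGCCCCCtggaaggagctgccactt
Gfi1b: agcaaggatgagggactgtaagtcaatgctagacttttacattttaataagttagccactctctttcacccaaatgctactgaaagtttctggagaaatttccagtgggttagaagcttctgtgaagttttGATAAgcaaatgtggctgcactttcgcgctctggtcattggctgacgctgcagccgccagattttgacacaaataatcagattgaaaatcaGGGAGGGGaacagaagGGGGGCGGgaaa
Klf1 had 1 GATA core, at base -80 from the start, and no CCNCNCCC match in the searched window. Zfpm1 had no GATA core and 4 CCNCNCCC matches. Epor held both, with its GATA core at base -54, and so did Gfi1b, with its core at base -119. A match describes the letters only, and binding was not measured. In the same build the genes lie at chr8:84901982-84905291 (Klf1), chr8:122281856-122337862 (Zfpm1), chr9:21958897-21963576 (Epor), chr2:28609450-28621982 (Gfi1b), chr2:103957903-103981878 (Lmo2), chr17:83706163-83823715 (Mta3), chr4:115056426-115071755 (Tal1), chr15:103248212-103258403 (Nfe2) and chrX:7959260-7976663 (Gata1).

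Levels are given as log2 signal minus the median log2 signal of the detected probes of that array, so that 0 is the level of the median detected probe and a change of 1 is a factor of 2. A gene was called changed at a p-value below 0.001 with a false discovery rate below 5% in limma, over all 16098 genes. In whole blood, fewer cells of a type and less RNA per cell cannot be told apart. The irradiated groups of one day were compared with the same control mice, so their differences are not independent of each other. The arrays of the 6 mice bled 7 days after 1 Gy of neutrons were the dimmest, with 40.2% to 50.3% of spots well above background and a median signal of 71.4 to 118, against 324 to 463 in the controls of that day. All other groups lay between 49.5% and 67.3%. The 7 scan dates did not spread evenly over the groups, and the values within a date are given where they bear on a result. No x-ray mouse was scanned on a date of the controls of its day, so no such value exists for x-rays.

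**Figure D1:**
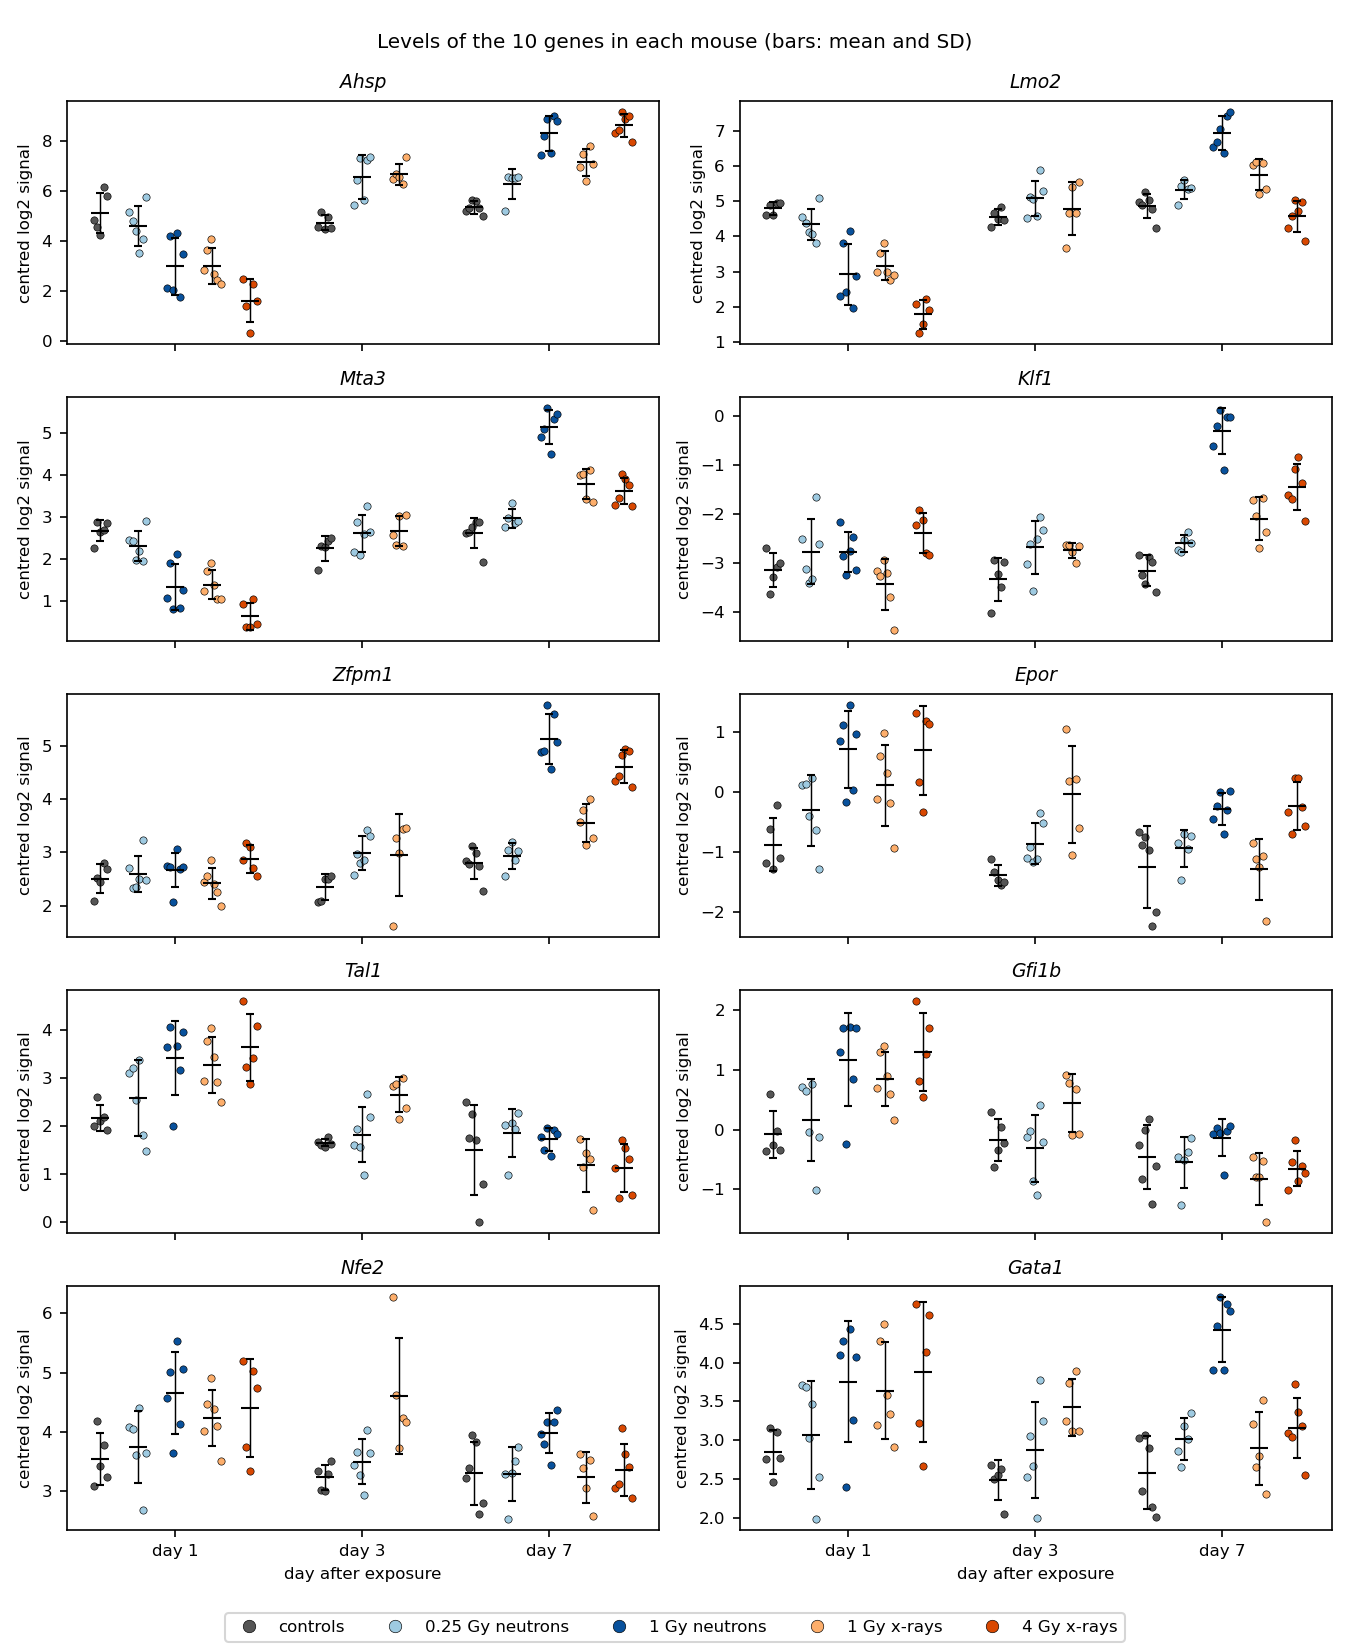
Centred log2 signal of the 10 genes in each of the 72 mice, by day after exposure on the horizontal axis and coloured by exposure. Each point is 1 mouse and the bars are the mean and SD of the group. Ahsp, Lmo2 and Mta3 lie low after 4 Gy of x-rays at day 1, and Ahsp, Klf1 and Zfpm1 lie above the controls after 1 Gy of neutrons and 4 Gy of x-rays at day 7.

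At day 1 the genes went in both directions. Ahsp, Lmo2 and Mta3 fell after 4 Gy of x-rays and Epor, Tal1 and Gfi1b rose, while Gata1, Klf1, Nfe2 and Zfpm1 did not pass. That is 3 of 10 genes lower, where 16.6% of all genes were called lower, and 3 of 10 higher, where 12.8% were called higher. Of the 10 genes 2 were lower after 1 Gy of neutrons, with 10.7% of all genes, and 1 was higher, with 5.62%. The 1 Gy x-ray mice had 3 of 10 lower, with 3.8% of all genes, and none was called higher. The share of all genes called higher after 1 Gy of x-rays is not given. After 0.25 Gy of neutrons none of the 10 was called, and 0.00621% of all genes were. The median change of the 10 genes was 0.21, 0.64, 0.30 and 0.81 on the log2 scale after 0.25 Gy of neutrons, 1 Gy of neutrons, 1 Gy of x-rays and 4 Gy of x-rays. The median over all genes lay between -0.09 and 0.01 in these 4 comparisons.

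Ahsp, the haemoglobin chaperone, fell furthest. The 5 control mice of day 1 had levels of 4.83, 4.56, 4.26, 6.16 and 5.80. The 5 mice given 4 Gy of x-rays had 2.48, 1.39, 0.29, 2.26 and 1.58, all below every control. The difference was -3.52 (SE 0.46, adjusted p = 0.000142), an 11.5-fold lower level. The 6 mice given 1 Gy of x-rays ran from 2.29 to 4.09 with a median of 2.77, and none reached the lowest control (-2.12, SE 0.41, adjusted p = 0.00738). In the 1 Gy neutron mice the levels ran from 1.77 to 4.31 with a median of 2.78, and 5 of 6 mice were below all controls. That difference was as large, at -2.14, but its error was larger (SE 0.55, adjusted p = 0.00978), and it did not pass the p-value threshold. After 0.25 Gy of neutrons Ahsp ranged from 3.51 to 5.76 and overlapped the controls (-0.50, SE 0.44, adjusted p = 0.573).

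Lmo2, the bridge of the TAL1 complex, was steady in the controls of day 1, at 4.61, 4.88, 4.62, 4.95 and 4.96. It was 2.08, 1.24, 1.5, 2.23 and 1.89 in the 5 mice given 4 Gy of x-rays. The groups were far apart, and the change of -3.02 (SE 0.21, adjusted p = 3.76e-06) was an 8.10-fold fall. Lmo2 after 1 Gy of x-rays ranged from 2.76 to 3.82 with a median of 2.98, and after 1 Gy of neutrons from 1.95 to 4.16 with a median of 2.65. All 6 mice of each group lay below every control, and both differences passed, at -1.64 (SE 0.19, adjusted p = 0.00123) and -1.89 (SE 0.37, adjusted p = 0.00279). The 0.25 Gy neutron mice were 0.46 lower on average (difference -0.46, SE 0.21, adjusted p = 0.337), with 5 of 6 below all controls.

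Mta3, the NuRD subunit, followed the same order. It was 2.26, 2.88, 2.65, 2.69 and 2.86 in the controls and 0.91, 0.37, 0.37, 1.03 and 0.43 after 4 Gy of x-rays, a difference of -2.05 (SE 0.20, adjusted p = 2.23e-05) or 4.14-fold. Both 1 Gy groups lay wholly below the controls, with differences of -1.29 (SE 0.19, adjusted p = 0.00217) for x-rays and -1.35 (SE 0.26, adjusted p = 0.00252) for neutrons. A second Mta3 probe fell less after 4 Gy of x-rays (-1.23) and after 1 Gy of neutrons (-0.95). The remaining probe, designed to a predicted transcript, gave -0.32 and -0.22. The 3 probes lie at different places of the gene, and the size of the Mta3 change depended on which one was read.

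Epor, Tal1 and Gfi1b rose at day 1. Epor was -1.18, -0.62, -1.28, -0.22 and -1.10 in the controls and 1.32, 0.16, -0.35, 1.17 and 1.13 after 4 Gy of x-rays. Of the irradiated mice 1 lay within the control range and 4 of 5 lay above it (difference 1.57, SE 0.34, adjusted p = 0.00266). All 6 mice given 1 Gy of neutrons were above the controls, between -0.17 and 1.45 with a median of 0.90, and the difference was 1.58 (SE 0.31, adjusted p = 0.00303), a 3.00-fold rise. The 1 Gy x-ray mice differed by 0.99 (SE 0.32, adjusted p = 0.0542), with 5 of 6 mice above all controls. Tal1 passed after 4 Gy of x-rays only, with 4.62, 3.23, 2.87, 3.42 and 4.10 against 2.01, 2.61, 2.10, 2.19 and 1.91 in the controls. Its difference was 1.48 (SE 0.31, adjusted p = 0.00189), and the groups did not overlap. It was 1.26 (SE 0.33, adjusted p = 0.0112) after 1 Gy of neutrons and 1.11 (SE 0.26, adjusted p = 0.0166) after 1 Gy of x-rays.

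Gfi1b, the repressor, was 2.16, 0.81, 0.54, 1.27 and 1.71 after 4 Gy of x-rays and -0.36, 0.59, -0.25, -0.02 and -0.34 in the controls. The highest control overlapped the lowest irradiated mouse, and the difference was 1.37 (SE 0.31, adjusted p = 0.00319). Nfe2 and Gata1 had differences above 0 in all 4 groups that did not pass, up to 1.11 for Nfe2 after 1 Gy of neutrons (SE 0.33, adjusted p = 0.0184) and 1.03 for Gata1 after 4 Gy of x-rays (SE 0.37, adjusted p = 0.0342). Klf1 and Zfpm1 had differences of -0.30 to 0.76 for Klf1 and -0.09 to 0.37 for Zfpm1, none of which passed.

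The day 1 calls differed in how firmly they stood. Those of Lmo2, Ahsp and Mta3 after 4 Gy of x-rays were kept in all 15 alternative settings and whichever of the 10 mice was left out. The blocks for scan date and slide were random terms there. No date or slide held both groups, so these blocks could not take out an effect of either. The calls of Tal1, Gfi1b and Epor at that dose were kept in 5, 3 and 3 of 10 fits without 1 mouse. All 3 were lost without control replicate 1, 3 or 5 or x-ray replicate 5, Tal1 and Gfi1b also without control replicate 4, Gfi1b and Epor also without x-ray replicate 1 or 4, and Epor also without control replicate 2. The changes in the fits that lost them were 1.37 to 1.49 for Tal1 (adjusted p up to 0.00626), 1.16 to 1.39 for Gfi1b (up to 0.00991) and 1.41 to 1.63 for Epor (up to 0.00837). Epor after 1 Gy of neutrons was lost without control replicate 1, 3 or 5 (1.48 to 1.53, adjusted p = 0.00996 to 0.0108). None of Tal1, Gfi1b and Epor after 4 Gy of x-rays was called when centred on the 75th percentile of each array (3 lower and 0 higher) or with the mean level of liver genes as a covariate, an alternative chosen after the data were seen. Centring on the 7 probes of spike-in controls, RNAs added to every sample, instead gave 4 higher and 3 lower after 4 Gy of x-rays, 5 higher and 1 lower after 1 Gy of neutrons and 1 higher and 3 lower after 1 Gy of x-rays. For these and later counts on the spike-in scale, the share of all genes called is not given. Hepatocyte genes, which blood cells do not make, moved with these groups: the mean level of the 9 tested ones was 8.16 to 8.99 after 4 Gy of x-rays and 0.57 to 7.24 in the controls of day 1, and the other 9 of the list of 18 were not detected often enough to be tested. Their part in the member genes' changes was not tested beyond that covariate. With normexp background correction the calls of Lmo2, Ahsp and Mta3 after 4 Gy of x-rays were the 3 left at day 1. Mta3 after 1 Gy of neutrons was not called with spike-in centring. With scan date or replicate number as a block, Lmo2 and Mta3 after 1 Gy of neutrons and Ahsp after 1 Gy of x-rays were no longer called. The replicate block also ended the calls of Tal1, Gfi1b and Epor after 4 Gy of x-rays (adjusted p = 0.00886, 0.0137 and 0.005 in limma). Within the scan date shared by 4 of the 1 Gy neutron mice and all 5 controls, the differences were -1.63 for Lmo2, -1.21 for Mta3, -1.96 for Ahsp and 1.69 for Epor.

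**Figure D2:**
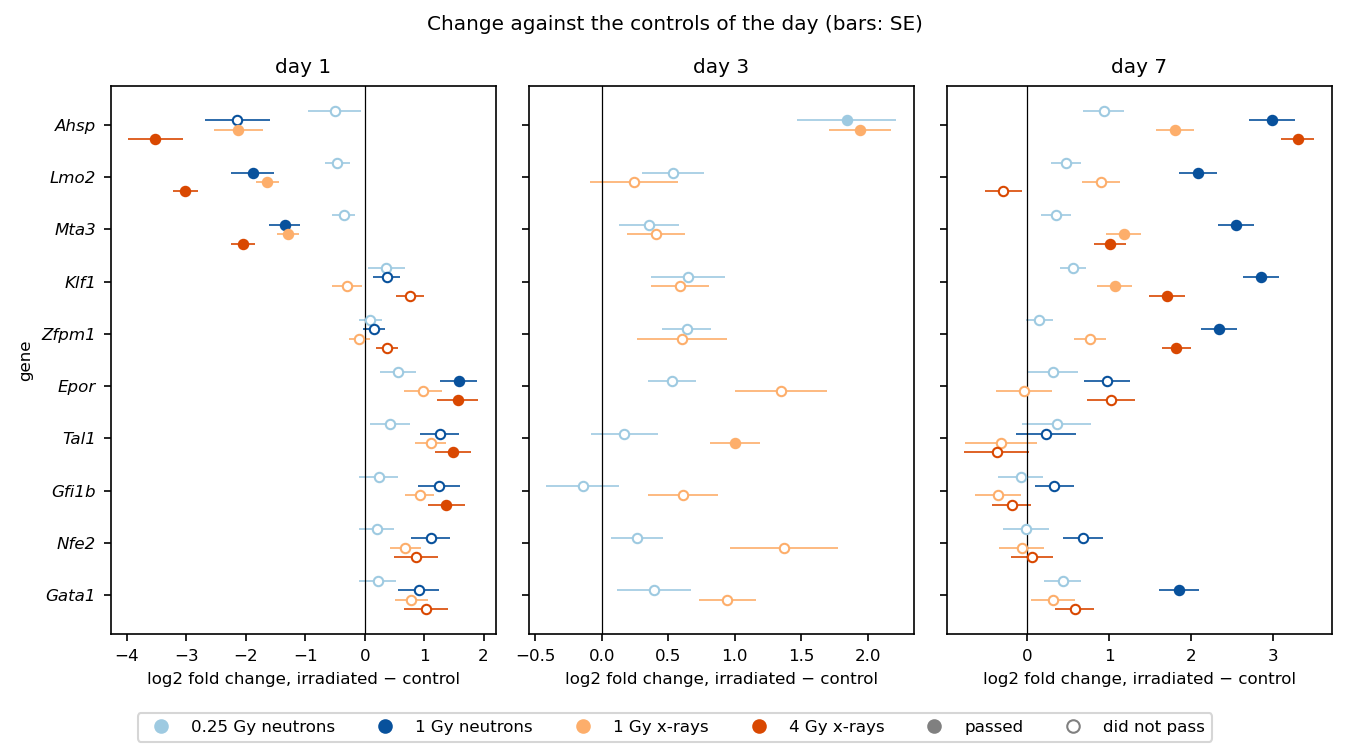
Log2 change of each gene against the controls of the same day, with its SE, for each exposure at day 1, day 3 and day 7. Filled points passed limma at a p-value below 0.001 and a false discovery rate below 5% and open points did not. The day 1 changes run from -3.52 for Ahsp to 1.58 for Epor. The day 7 changes after 1 Gy of neutrons all lie lower when centred on spike-in controls, where Gata1, Tal1, Nfe2, Gfi1b and Epor change sign.

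At day 3, Ahsp was above the controls after both exposures that were measured. The controls had 4.55, 5.16, 4.47, 4.96 and 4.54. The 5 mice given 1 Gy of x-rays had 6.49, 6.67, 6.56, 6.29 and 7.37, a rise of 1.94 (SE 0.23, adjusted p = 0.0256), and the 6 mice given 0.25 Gy of neutrons ran from 5.44 to 7.36 with a median of 6.85, a rise of 1.84 (SE 0.37, adjusted p = 0.0405). No irradiated mouse reached down to the controls. It was the one gene of the 10 called higher after 0.25 Gy of neutrons, where 0.547% of all genes were called higher. In the x-ray mice 2 of 10 were called higher, with 1.22% of all genes. The second was Tal1, at 2.85, 2.88, 2.16, 3.00 and 2.39 against 1.67, 1.61, 1.57, 1.78 and 1.64 (difference 1.00, SE 0.19, adjusted p = 0.0405). Epor, Nfe2 and Gata1 lay above all controls in 5 of 5 of these mice too, with differences of 1.35 (adjusted p = 0.0769), 1.37 (adjusted p = 0.117) and 0.94 (adjusted p = 0.0565) that did not pass in limma. Lmo2 and Mta3, low at day 1, differed from the controls of day 3 by 0.24 and 0.41 after 1 Gy of x-rays and by 0.54 and 0.36 after 0.25 Gy of neutrons, and none of these passed.

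The day 3 calls depended on single mice. Leaving out 1 mouse gave between 0 and 5 calls in place of 3, with 0 calls when control replicate 3, 4 or 5 was left out and 5 when x-ray replicate 1 was. Ahsp kept its call in 3 of 11 such fits after 0.25 Gy of neutrons (lost: 1.69 to 2.03, adjusted p = 0.0625 to 0.115) and in 4 of 10 after 1 Gy of x-rays (lost: 1.87 to 2.05, adjusted p = 0.0607 to 0.115), and Tal1 in 3 of 10. With spike-in centring neither gene was called after 1 Gy of x-rays, at 1.21 for Ahsp and 0.27 for Tal1. Ahsp after 0.25 Gy of neutrons was not called with scan date, slide or replicate number as a block (adjusted p = 0.615, 0.138 and 0.369 in limma), and within the scan date shared by 2 of these mice and the 5 controls the difference was 1.20. The mean level of the liver genes was 5.03 to 8.34 in these 6 mice, with a median of 6.49, and -1.41 to 6.82 in the controls of day 3, with a median of 1.12. The 16 platelet genes averaged 4.72 to 6.09 after 1 Gy of x-rays at day 3 and 4.11 to 4.52 in the controls, without overlap. With the level of the liver genes as a covariate no gene of the 10 was called at day 3, and no such fit was made with the platelet genes.

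At day 7 every call among the 10 genes was a rise. For the comparisons of day 7 with controls, here and below, the share of all genes called lower is not given. Ahsp, Klf1, Mta3, Zfpm1, Lmo2 and Gata1 rose after 1 Gy of neutrons, 6 of 10 genes where 18.4% of all genes were called higher. Ahsp, Zfpm1, Klf1 and Mta3 rose after 4 Gy of x-rays, 4 of 10 with 7.72% of all genes, and after 1 Gy of x-rays Ahsp, Mta3 and Klf1 rose, 3 of 10 with 2.64% of all genes. In each of these 13 calls every irradiated mouse lay above every control. After 0.25 Gy of neutrons none was called, and 0.547% of all genes were called in either direction. The median change of the 10 genes was 0.35, 1.96, 0.54 and 0.79 after 0.25 Gy of neutrons, 1 Gy of neutrons, 1 Gy of x-rays and 4 Gy of x-rays, and that of all genes was between -0.05 and -0.02.

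The rises after 1 Gy of neutrons rest on centring each array on its own detected probes. Centred on the spike-in controls, the median gene of these dim arrays lay 2.11 below the controls of day 7. On that scale 0 of the 10 genes were called higher and 4 were called lower. Of other genes, 14 of 16 platelet genes, 9 of 11 NuRD subunits other than Mta3 and 3 of 26 erythroid product genes were called lower. Ahsp was then 0.93, Klf1 0.80, Mta3 0.49, Zfpm1 0.28 and Lmo2 0.03 above the controls, while Gata1 (-0.21), Epor (-1.08), Nfe2 (-1.37), Gfi1b (-1.73) and Tal1 (-1.83) lay below them. The values that follow for this group are relative to the array's own median. For 1 Gy of x-rays the spike-in median of all genes was -0.95, with 0 genes of the 10 higher and 1 lower, and for 4 Gy of x-rays it was 0.19, with 6 higher and 0 lower. After 0.25 Gy of neutrons it was -1.13, with 0 higher and 2 lower. With normexp background correction Klf1 kept its call after 1 Gy of neutrons, Ahsp after 1 Gy of x-rays, and Ahsp and Zfpm1 after 4 Gy of x-rays.

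Ahsp reached its highest levels at day 7. The 6 controls ran from 4.99 to 5.66 with a median of 5.33. In the 4 Gy x-ray mice it ran from 7.98 to 9.18 with a median of 8.68, a difference of 3.29 (SE 0.21, adjusted p = 2.73e-07) or 9.81-fold, and after 1 Gy of neutrons from 7.47 to 9.03 with a median of 8.53, a difference of 2.98 (SE 0.28, adjusted p = 2.87e-06). The 5 mice given 1 Gy of x-rays had 6.95, 7.49, 6.40, 7.82 and 7.10 (difference 1.80, SE 0.23, adjusted p = 0.00214). All of these stood clear of the controls. After 0.25 Gy of neutrons 4 of 5 mice did, at 6.57, 6.55, 6.54 and 6.56, and the fifth had 5.20 (difference 0.93, SE 0.25, adjusted p = 0.0801).

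Klf1, the beta-globin activator, had passed in no group at day 1. At day 7 the controls ran from -3.58 to -2.82 with a median of -3.11, and after 1 Gy of neutrons it ran from -1.08 to 0.14 with a median of -0.11. The difference was 2.85 (SE 0.22, adjusted p = 7.82e-07), or 7.22-fold, and it was 0.80 when centred on spike-in controls. Before centring the Klf1 signal was low, at 34.1 to 47.8 in these controls (median 41.5) and 55.5 to 113 in the neutron mice (median 69.6). The 4 Gy x-ray mice had levels of -2.13 to -0.83 (difference 1.71, SE 0.22, adjusted p = 0.000115). The 1 Gy x-ray mice had -1.71, -2.03, -2.69, -1.66 and -2.35 (difference 1.06, SE 0.22, adjusted p = 0.0168), and that call was kept in 5 of 11 fits without 1 mouse. It was lost without control replicate 2, 3 or 6 or x-ray replicate 1, 2 or 4 (0.96 to 1.05, adjusted p = 0.0261 to 0.05), and with slide as a block (1.08, adjusted p = 0.051). All 5 mice given 0.25 Gy of neutrons were also above every control, but the difference of 0.56 did not pass (SE 0.16, adjusted p = 0.0889).

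Zfpm1, which encodes FOG1, rose with Klf1. It was 2.27 to 3.12 in the controls, 4.56 to 5.77 after 1 Gy of neutrons (difference 2.34, SE 0.22, adjusted p = 2.49e-06) and 4.22 to 4.93 after 4 Gy of x-rays (difference 1.82, SE 0.17, adjusted p = 1.4e-05). All 5 mice given 1 Gy of x-rays exceeded the controls, with a difference of 0.76 that did not pass (SE 0.19, adjusted p = 0.0368). A second Zfpm1 probe that overlaps the first gave 2.33 and 1.85 for the neutron and the 4 Gy x-ray mice, and the remaining one, designed to a predicted transcript, gave 1.00 and 1.41. The 4 Gy x-ray calls of Zfpm1 and Ahsp were kept in all 15 alternative settings, though no term for scan date could be fitted there, and in all 12 fits without 1 mouse. At no day was an x-ray mouse scanned on a date or slide of the controls of that day. In every comparison of x-rays with controls, date and slide therefore cannot be told apart from exposure.

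Relative to the array's own median, Lmo2, Mta3 and Gata1 rose more after 1 Gy of neutrons than after x-rays, as did Klf1. On the spike-in scale none of these genes was called higher after neutrons than after x-rays. Lmo2 was 4.24 to 5.28 in the controls of day 7 and 6.39 to 7.54 after 1 Gy of neutrons (difference 2.08, SE 0.23, adjusted p = 9.07e-06). The 4 Gy x-ray mice had 3.88 to 5.05 and overlapped the controls (difference -0.29, SE 0.22, adjusted p = 0.318), and after 1 Gy of x-rays it was 6.04, 6.12, 5.22, 6.10 and 5.35 (difference 0.90, SE 0.23, adjusted p = 0.0367). Mta3 rose after 1 Gy of neutrons (2.54, SE 0.21, adjusted p = 1.31e-06), 1 Gy of x-rays (1.17, SE 0.21, adjusted p = 0.00973) and 4 Gy of x-rays (1.01, SE 0.19, adjusted p = 0.00187). Its second probe gave 2.60 for the neutron mice and the one to a predicted transcript gave -0.06. Gata1 was called after 1 Gy of neutrons only, at 3.90 to 4.84 against 2.01 to 3.06 (difference 1.84, SE 0.24, adjusted p = 3.73e-05), and it was -0.21 when centred on spike-in controls. Of the 6 neutron arrays 1 was scanned on the date of the controls. For that mouse the differences were 2.55 for Klf1, 2.31 for Mta3, 2.11 for Ahsp, 2.09 for Zfpm1, 1.69 for Lmo2 and 1.32 for Gata1, and with date as a block the calls of Lmo2 (1.69, adjusted p = 0.00884) and Gata1 (1.32, adjusted p = 0.0382) were lost in limma.

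Epor, Tal1, Nfe2 and Gfi1b were not called in any group at day 7. Epor was 0.97 (SE 0.28, adjusted p = 0.00912) after 1 Gy of neutrons, with 5 of 6 mice above all controls, and -1.08 when centred on spike-in controls. It was 1.02 (SE 0.30, adjusted p = 0.018) after 4 Gy of x-rays, again with 5 of 6 mice above. The differences of Tal1, Nfe2 and Gfi1b lay between -0.37 and 0.68 in the 4 groups. The Tal1 controls of day 7 were widely spread, from -0.01 to 2.5, which limits what this comparison could show.

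Neutrons and x-rays were then compared directly, though they also differed in dose rate, and the neutron beam held gamma rays. These cannot be told apart from the type of radiation. At day 1 none of the 10 genes differed between 1 Gy of neutrons and 1 Gy of x-rays, where 9.62% of all genes did, or between 1 Gy of neutrons and 4 Gy of x-rays, where 0.0311% did. In the first pair the differences ran from -0.24 to 0.67. In the second Ahsp and Lmo2 were 1.38 (SE 0.56, adjusted p = 0.233) and 1.13 (SE 0.39, adjusted p = 0.209) higher in the neutron mice, with 5 of the 6 neutron mice above all x-ray mice for Lmo2. At day 7 the 1 Gy neutron mice were higher than the 1 Gy x-ray mice for 6 of 10 genes, with 13.1% of all genes. They were higher than the 4 Gy x-ray mice for 4 of 10, with 22.7% of all genes (4 higher and 1 lower after quantile normalisation). Centred on spike-in controls, none of the 10 was higher in either pair and 8 were lower than after 4 Gy of x-rays. On that scale 16 of 16 platelet genes, 11 of 11 NuRD subunits other than Mta3 and 10 of 26 erythroid product genes were lower there too.

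Relative to the array's own median, Klf1 differed most from 1 Gy of x-rays (1.79, SE 0.26, adjusted p = 0.000679), followed by Zfpm1 (1.58), Gata1 (1.53), Mta3 (1.37), Lmo2 (1.18) and Epor (1.01). On the spike-in scale these were 0.65, 0.44, 0.39, 0.23, 0.04 and -0.13, and none was called. Against 4 Gy of x-rays Lmo2 was 2.37 higher (SE 0.25, adjusted p = 4.86e-06), Mta3 1.54 (adjusted p = 3.45e-05), Gata1 1.27 (adjusted p = 0.00031) and Klf1 1.15 (adjusted p = 0.00145) in limma. With spike-in centring Lmo2 was at 0.08, and Mta3, Gata1 and Klf1 turned to -0.75, -1.02 and -1.14. Ahsp, Zfpm1 and Epor did not pass against 4 Gy of x-rays, at -0.31 (SE 0.31), 0.52 (SE 0.22) and -0.05 (SE 0.19). Among the 10 genes Lmo2 was the one with the largest difference between the 2 exposures, above all controls after neutrons and overlapping them after 4 Gy of x-rays, and this difference shrank to 0.08 under the other scaling. In place of these 10 calls there were 3 with replicate number as a block, 4 with scan date as a block and 6 with slide as a block.

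**Figure D3:**
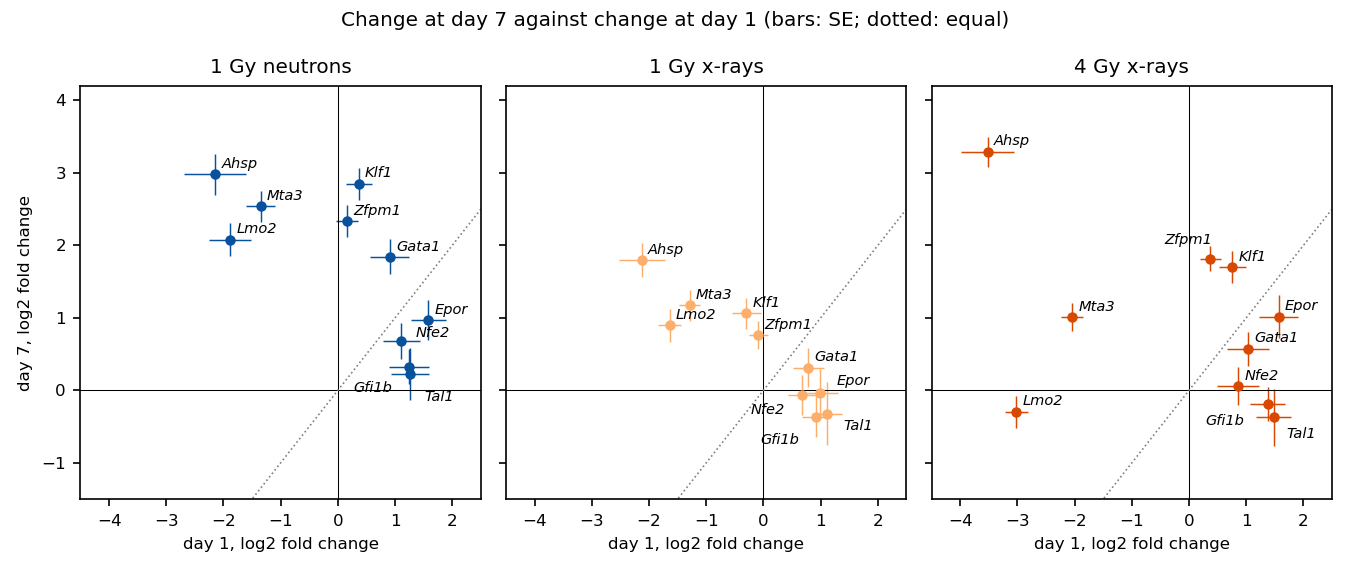
Log2 change against the controls at day 7 (vertical axis) against that at day 1 (horizontal axis) for the 10 genes after 1 Gy of neutrons, 1 Gy of x-rays and 4 Gy of x-rays, with SE. Ahsp, Mta3 and Lmo2 lie to the left of 0, and Epor, Tal1, Gfi1b and Nfe2 lie to the right. Klf1 and Zfpm1 lie between -0.30 and 0.76 at day 1 and above 0 at day 7. The neutron values of day 7 are lower with spike-in centring, which puts Epor, Tal1, Gfi1b, Nfe2 and Gata1 below 0.

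The change between the days was tested as an interaction, the day 7 effect minus the day 1 effect. Of the 10 genes 5 moved up between the days after 1 Gy of neutrons, with 16.1% of all genes, after 1 Gy of x-rays 4 of 10, with 5.05%, and after 4 Gy of x-rays 4 of 10, with 11.3%. Gfi1b after 4 Gy of x-rays was the 1 gene that moved down, with 8.45% of all genes. After 0.25 Gy of neutrons none of the 10 was called, and 0.752% of all genes were. Ahsp moved most, by 6.82 after 4 Gy of x-rays (SE 0.51, adjusted p = 1.94e-08), 5.12 after 1 Gy of neutrons (SE 0.63, adjusted p = 1.4e-06) and 3.93 after 1 Gy of x-rays (SE 0.50, adjusted p = 2.18e-05). Mta3 and Lmo2 moved up after each of these 3 exposures, between 2.46 and 3.97. Klf1 moved up after 1 Gy of neutrons (2.49) and 1 Gy of x-rays (1.36), and Zfpm1 after 1 Gy of neutrons (2.18) and 4 Gy of x-rays (1.44). Gfi1b moved by -1.57 after 4 Gy of x-rays (SE 0.40, adjusted p = 0.00402), and Tal1 by -1.86 without passing (SE 0.54, adjusted p = 0.00952). With spike-in centring the upward moves of Ahsp, Lmo2 and Mta3 after 1 Gy of neutrons were 2.59, 1.43 and 1.35 and were still called, whereas Klf1 and Zfpm1 were at -0.05 and -0.36. On that scale 3 genes moved up and 5 down after 1 Gy of neutrons, 2 and 4 after 1 Gy of x-rays, and 4 and 2 after 4 Gy of x-rays.

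The genes also varied from mouse to mouse within a group, and they did so mostly along 2 lines. Each array's deviation from its group mean was set against the mean of 26 reticulocyte and erythroid product genes and against the mean of 16 platelet genes, neither of which holds any of the 10. Over the 72 arrays Lmo2, Ahsp and Mta3 followed the erythroid genes (r = 0.911, 0.888 and 0.834; rho = 0.920, 0.894 and 0.838). Epor, Tal1, Gata1, Gfi1b and Nfe2 followed the platelet genes (r = 0.923, 0.914, 0.861, 0.855 and 0.845; rho = 0.933, 0.901, 0.876, 0.843 and 0.873). Without the 2 arrays farthest from the median of the list, these 8 values of r lay between 0.839 and 0.916. The 8 genes had lower r with the other list, yet not near 0. Lmo2, Ahsp and Mta3 had r = 0.406, 0.436 and 0.404 with the platelet genes. Epor, Tal1, Gfi1b and Nfe2 had r = 0.463, 0.459, 0.450 and 0.448 with the erythroid genes. Gata1 had r = 0.696 with the erythroid genes, so it followed both lists. Klf1 followed neither closely (r = 0.356 and 0.119), and Zfpm1 followed the erythroid genes loosely (r = 0.602, against 0.230 for the platelet genes). Values of one array share its RNA sample, hybridisation and centring, so these figures describe the arrays and carry no test.

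**Figure D4:**
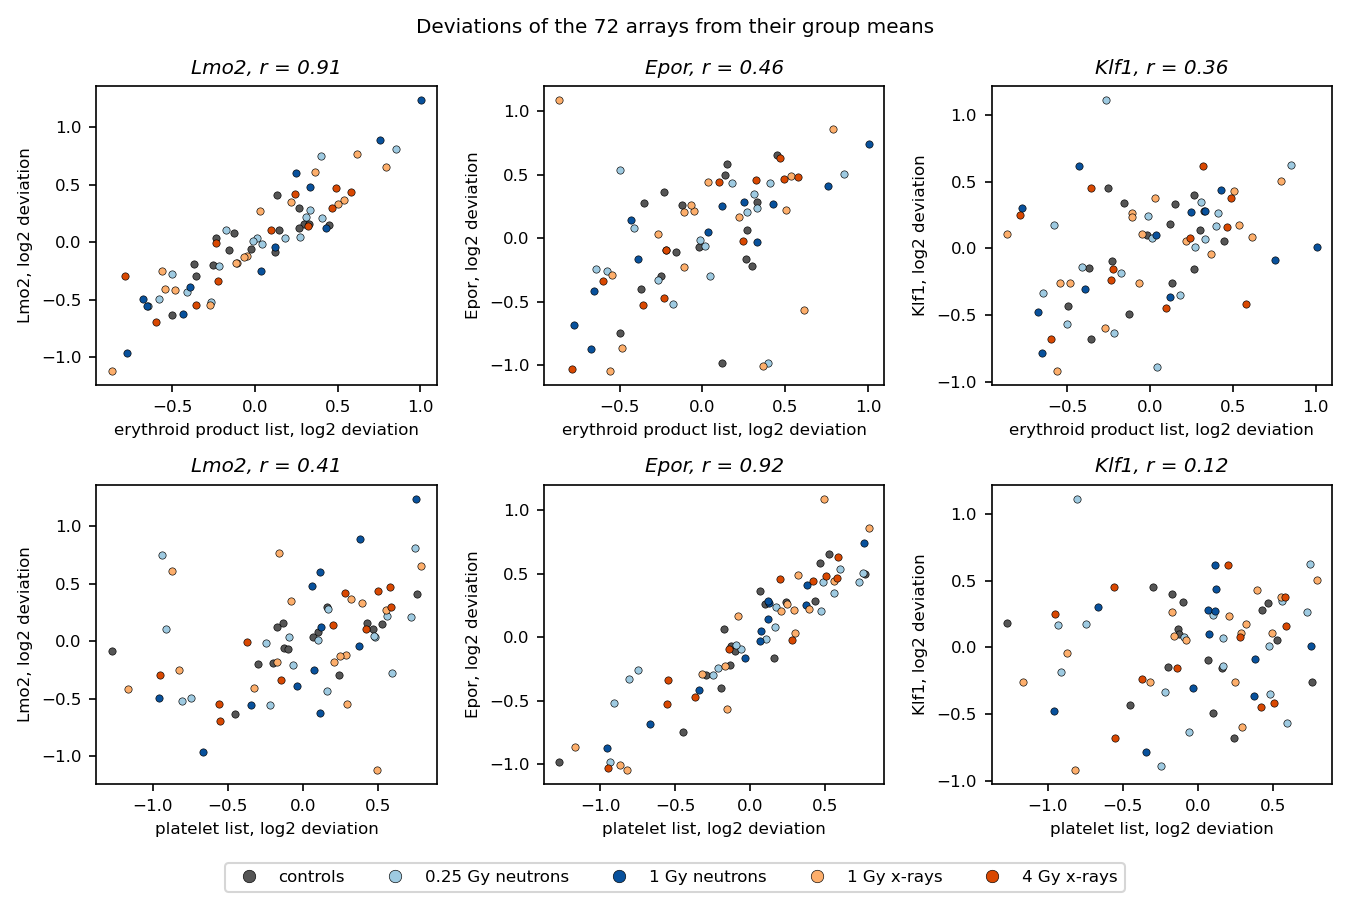
Deviation of Lmo2, Epor and Klf1 from the group mean (vertical axes, log2) against that of the 26 erythroid product genes (upper row) and the 16 platelet genes (lower row), 1 point per array, coloured by exposure. Lmo2 follows the erythroid genes, Epor the platelet genes and Klf1 neither closely.

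Both lists were also compared with the controls. Of the 26 erythroid product genes, 18 were lower and 1 was higher in the 4 Gy x-ray mice of day 1, with a median change of -2.13, 12 and 0 after 1 Gy of x-rays, and 3 and 1 after 1 Gy of neutrons. Of all genes 16.6%, 3.8% and 10.7% were called lower in the same order, so the count after 1 Gy of neutrons was near that share. Slc4a1, which encodes the anion exchanger band 3 of the red cell membrane, fell by 4.4 on the log2 scale after 4 Gy of x-rays (SE 0.50, adjusted p = 6.37e-05). At day 7 after 1 Gy of neutrons 24 of the 26 were higher, with a median of 2.55, where 18.4% of all genes were called higher. With spike-in centring 0 were higher and 3 lower, at a median of 0.50. In the 4 Gy x-ray mice 8 were higher at day 7 (median 0.83), with 7.72% of all genes, led by Rhd (2.41, SE 0.26, adjusted p = 3.36e-05), an Rh blood group protein. The mean of the list ran from 2.34 to 3.16 in the controls of day 1 and from -0.04 to 1.32 after 4 Gy of x-rays, without overlap. The mean of the 16 platelet genes ran from 4.37 to 5.19 in the controls of day 1, from 4.86 to 6.58 after 1 Gy of neutrons, from 4.62 to 6.23 after 1 Gy of x-rays and from 4.72 to 6.26 after 4 Gy of x-rays. The medians of the changes of the 16 genes were 1.15, 0.84 and 1.02 in these groups, while 2, 1 and 1 of them passed the test as higher and 15, 2 and 6 did with spike-in centring. Of all genes 5.62% were called higher after 1 Gy of neutrons and 12.8% after 4 Gy of x-rays, so the count after 4 Gy of x-rays was below that share. At day 3 after 1 Gy of x-rays 5 of the 16 passed, with 1.22% of all genes called higher. They were led by thrombospondin 1 (Thbs1, 2.17, SE 0.38, adjusted p = 0.037). Among other cell types, 4 of 7 neutrophil genes were higher at day 7 after 1 Gy of neutrons and 3 after 4 Gy of x-rays, but with spike-in centring 0 were higher and 1 lower after neutrons. No more than 1 of 8 basophil and mast cell genes and 2 of 4 eosinophil genes passed in any comparison with controls. What part any of these cell types had in the changes of the 10 genes was not tested.

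The genes with the most similar pattern were sought by Pearson's r over all 72 arrays, which share the exposures, the days and the centring. The 3 closest were taken for each gene, and some of these are known on the array only by a transcript or cluster ID and are called unnamed here. Ahsp was closest to Rhd (r = 0.983) and Apol10a (r = 0.980), followed by an unnamed transcript (r = 0.974). Mta3 was closest to an unnamed transcript (r = 0.989), then to Hipk1 (r = 0.980) and Ackr1 (r = 0.979), and Lmo2 to another (r = 0.981), then to Tfdp2 and Ube2b (both r = 0.978). Epor was closest to Gp1bb (r = 0.930), a chain of the platelet receptor for von Willebrand factor, then to Tbxas1, the thromboxane synthase (r = 0.919), and Gpx4 (r = 0.918). Nfe2 was closest to an unnamed transcript (r = 0.941), then to Pgap4 (r = 0.929) and Treml1 (r = 0.925), a receptor of platelet granules. Tal1 was closest to Ssx2ip (r = 0.977), Litaf (r = 0.965) and Sh3bgrl2 (r = 0.961), and Gfi1b to Litaf (r = 0.946), Adgrg1 (r = 0.940) and an unnamed transcript (r = 0.936). Gata1 was closest to Ap2m1 (r = 0.937), an unnamed transcript (r = 0.920) and Sdcbp (r = 0.918). Zfpm1 was closest to the haem synthesis enzyme gene Urod (r = 0.933) and Klf1 to Map2k2 (r = 0.921). The same unnamed transcript came next for both (r = 0.927 with Zfpm1 and 0.920 with Klf1), before Nqo1 for Zfpm1 (r = 0.925) and Ubl4a for Klf1 (r = 0.906). Within groups, Nfe2 and Epor had r = 0.858, Gata1 and Gfi1b 0.854, and Lmo2 and Mta3 0.842. Klf1 and Zfpm1 had r = 0.897 over all arrays but 0.550 within groups.

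The partners of these factors did not move as one. Of 21 tested partners and cofactors of GATA1 and TAL1, 10 were lower and 2 higher after 4 Gy of x-rays at day 1, 6 and 1 after 1 Gy of neutrons, and 3 and 0 after 1 Gy of x-rays. Of all genes 16.6%, 10.7% and 3.8% were called lower in the same order. Sox6, a repressor of embryonic globin, fell at day 1 after 1 Gy of neutrons (-1.78), 1 Gy of x-rays (-2.69) and 4 Gy of x-rays (-2.36) and rose at day 7 after 1 Gy of neutrons (3.09, SE 0.31, adjusted p = 4.21e-06, and 1.04 with spike-in centring) and 1 Gy of x-rays (1.91, SE 0.36, adjusted p = 0.0121). Bcl11a, the repressor of fetal globin that B cells also express, fell at both days after these exposures, and furthest after 4 Gy of x-rays at day 1 (-4.51, SE 0.31, adjusted p = 4.01e-06). All 7 tested B cell genes were lower there, and their mean ran from -1.85 to -0.55 against 2.91 to 3.67 in the controls. At day 7 the 21 genes were split, 4 higher and 6 lower after 1 Gy of neutrons, but 0 and 15 with spike-in centring, and 2 and 3 after 4 Gy of x-rays. Of all genes 18.4% were called higher after 1 Gy of neutrons and 7.72% after 4 Gy of x-rays, so the higher counts were near the share of all genes. With spike-in centring the day 1 counts were 4 lower and 2 higher after 4 Gy of x-rays and 1 lower and 3 higher after 1 Gy of neutrons. At day 3 Ldb1, the protein that LMO2 joins to TAL1, was lower after 0.25 Gy of neutrons (-0.69, SE 0.13, adjusted p = 0.0393).

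Downstream of the erythropoietin receptor, 2 of 12 signalling genes, the feedback inhibitors Cish and Socs2, were called higher at day 1. Cish rose at day 1 after 1 Gy of neutrons (1.57), 1 Gy of x-rays (1.79) and 4 Gy of x-rays (2.47, SE 0.21, adjusted p = 1.44e-05), and Socs2 rose by 2.07, 2.08 and 2.34 in the same groups. No other gene of the 12 was higher at day 1, where 5.62% of all genes were after 1 Gy of neutrons and 12.8% after 4 Gy of x-rays. The 2 of 12 after 4 Gy of x-rays were near that share. Socs3, a further feedback inhibitor of the list, was not called higher. Ptpn6, a phosphatase that dampens receptor signalling, was lower after 1 Gy of x-rays (-0.87) and 4 Gy of x-rays (-1.47). At day 7 Cish (2.17), Socs2 (1.94) and the stem cell factor receptor Kit (1.67, SE 0.23, adjusted p = 0.00017) were higher after 4 Gy of x-rays. Bcl2l1, the survival gene that keeps late erythroid cells alive, was higher after 1 Gy of x-rays (1.35, SE 0.21, adjusted p = 0.00437) and after 1 Gy of neutrons (2.78, and 0.72 with spike-in centring). With spike-in centring 0 of the 12 were higher and 9 lower at day 7 after 1 Gy of neutrons, in place of 2 and 1. Of all genes 18.4% were called higher there with median centring, near the 2 of 12. Several of the 12 genes respond to other cytokines in white cells, and which cells carried the change was not tested.

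Of 11 tested subunits of the NuRD complex other than Mta3, 5 were lower after 4 Gy of x-rays at day 1, 4 after 1 Gy of neutrons and 2 after 1 Gy of x-rays, where 1 was higher. Of all genes 16.6%, 10.7% and 3.8% were called lower in the same order. Rbbp4, a histone-binding subunit, fell after 4 Gy of x-rays at day 1 (-1.12, SE 0.16, adjusted p = 0.000206) and 1 Gy of neutrons (-0.83) and rose at day 7 after 4 Gy of x-rays (1.80, SE 0.18, adjusted p = 1.89e-05), 1 Gy of x-rays (1.15) and 1 Gy of neutrons (2.49, and 0.43 with spike-in centring). Gatad2b fell after 4 Gy of x-rays at day 1 (-1.38) and rose at day 7 after the same dose (0.95, SE 0.20, adjusted p = 0.00385). Chd4, the remodelling ATPase, was lower at day 1 after 1 Gy of neutrons (-0.78) and of x-rays (-0.68). With spike-in centring 1 subunit was lower after 4 Gy of x-rays at day 1, and after 1 Gy of neutrons 0 were lower and 1 was higher. At day 7 after 1 Gy of neutrons 0 were higher and 9 lower on that scale, in place of 2 and 2. Of all genes 18.4% were called higher there with median centring, near the 2 of 11.

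**Figure D5:**
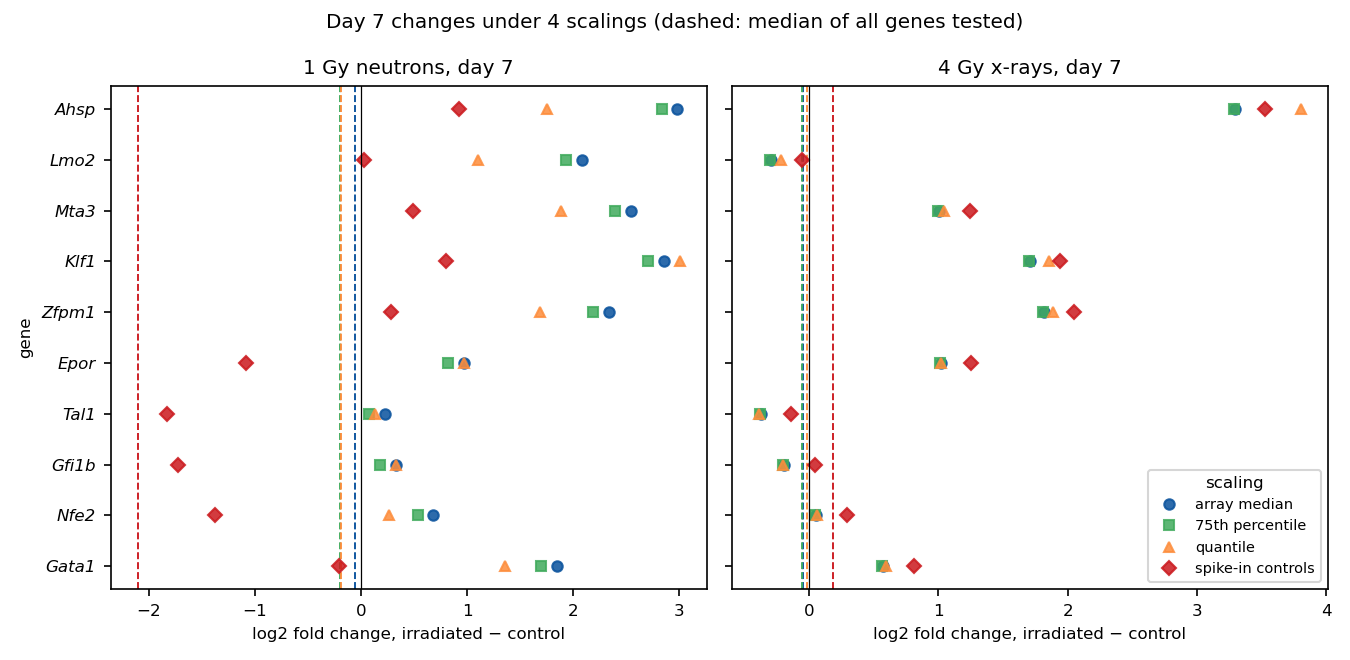
Log2 change of the 10 genes at day 7 after 1 Gy of neutrons and 4 Gy of x-rays when arrays were centred on their median (circles), on their 75th percentile (squares), quantile normalised (triangles) or centred on spike-in controls (diamonds), with the median of all genes as dashed lines. After 1 Gy of neutrons the spike-in values lie lowest and Gata1, Epor, Nfe2, Gfi1b and Tal1 fall below 0, and after 4 Gy of x-rays the scalings lie close together.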

How the data were processed

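Blood RNA of 72 mice was hybridised to one-colour Agilent 4x44K mouse arrays, 1 mouse per array. The authors extracted spot intensity with Agilent Feature Extraction 12.0.2 and deposited background-subtracted, detrended processed signals. Here spots marked as non-uniform or outliers were left out, the log2 of the deposited processed signal was averaged over replicate spots and centred on the median of the array's 19808 detected probes, those dim or left out on under 25% of day 1 and day 7 arrays, and each gene was read from its brightest detected probe. Probes were named through RefSeq accessions where these matched (28330 of 39429). Each comparison was fitted on its own groups with limma 3.58.1 in R 4.3.3, with Benjamini-Hochberg adjustment over 16098 genes, and the script was tested on simulated data. Day 7 minus day 1 effects came from fits of the 4 groups. The number of arrays limits the precision.

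Genes named besides the 10 were taken, for each list, from the 3 called genes with the largest changes in a comparison, and, for each of the 10, the 3 genes with the highest correlation over the arrays. The 10 genes, the lists and the tests were chosen with earlier results of these data known. Alternatives were other scalings (75th percentile, quantile, 7 spike-in probes), normexp with an offset of 50, filters, the mean of probes, a random variance test, one fit over 13 groups, and blocks for scan date and replicate number. Blocks for slide, a liver gene covariate and the authors' processed log2 table were added after the data were seen. Of that table's 72 columns, 12 followed the array of the sample they name and 60 another sample's, 21 of them from another group. All 72 columns stood at the place of their array when arrays were sorted by name with the separator before digits. Its scale is log2, with column medians from 8.421 to 9.335, and the arrays were used with their own labels.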

Additional observations from a re-analysis of the deposited data

Results flagged for a closer look

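In 8 of 130 combinations of the 10 genes with the 13 groups of mice, 6.15%, the lowest level of a gene lay far from the others of its group, and chance gives about 1 in 20. The combinations share the same mice. Ahsp was 5.20 in replicate 1 of the 0.25 Gy neutron mice at day 7, against 6.54 in the next lowest. Tal1 was 0.97 in replicate 2 of the same group. Among the controls, Gata1 was 2.04 in replicate 5 of day 3, and Mta3 was 1.73 in replicate 1 of day 3 and 1.91 in replicate 6 of day 7. Gfi1b was -0.77 in replicate 4 of the 1 Gy neutron mice at day 7, Zfpm1 was 2.07 in replicate 3 of the 1 Gy neutron mice at day 1, and Zfpm1 was 1.62 at day 3 in replicate 1 of those given 1 Gy of x-rays.

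The effect of an exposure differed between day 7 and day 1, by the interaction test, in 14 cases. After 1 Gy of neutrons the differences were 5.12 for Ahsp, 3.97 for Lmo2, 3.89 for Mta3, 2.49 for Klf1 and 2.18 for Zfpm1, of which Klf1 (-0.05) and Zfpm1 (-0.36) changed sign with spike-in centring. After 1 Gy of x-rays they were 3.93 for Ahsp, 2.54 for Lmo2, 2.46 for Mta3 and 1.36 for Klf1. After 4 Gy of x-rays they were 6.82 for Ahsp, 3.05 for Mta3, 2.72 for Lmo2, 1.44 for Zfpm1 and -1.57 for Gfi1b.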

How the results depend on the processing

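The 10 genes gave 12 calls at day 1, 3 at day 3, 13 at day 7, 10 between neutrons and x-rays and 14 between the days. With normexp background correction these became 3, 1, 4, 2 and 8, and the cause was not tested. The authors' processed table, read by the names of its columns, gave 3, 0, 3, 1 and 4. In it 60 of 72 columns followed another sample's array, 21 of them from another group. All 5 columns of the day 3 controls followed arrays of other groups. Its counts therefore compare arrays under names that are often not their own, and whether its processing also mattered was not tested. At day 3 there were 1 call with spike-in centring, 0 with no detection filter, 6 with scan date as a block and 0 with the liver covariate. For 1 Gy of x-rays that date block was a random term, and no date held both groups, so it could not take out a date effect. Between neutrons and x-rays there were 5 with dim spots missing, 4 with scan date as a block, 6 with slide as a block and 3 with replicate number as a block. Leaving out 1 mouse gave 8 to 16 calls at day 1, 0 to 5 at day 3, 12 to 14 at day 7, 7 to 11 between neutrons and x-rays and 12 to 17 between the days. At day 1, 8 were left without control replicate 1, 3 or 5; between neutrons and x-rays, 7 without 1 Gy neutron replicate 2, 3, 5 or 6 of day 7. After 1 Gy of neutrons at day 7 spike-in centring reversed Gata1 (-0.21), Epor (-1.08), Nfe2 (-1.37), Gfi1b (-1.73) and Tal1 (-1.83). Same-numbered mice correlated from -0.527 to 0.64 in their deviations. Differently numbered mice were not set beside them, so whether replicate numbers pair the mice cannot be told. With the replicate block there were 8 calls at day 1, 2 at day 3, 13 at day 7, 3 between neutrons and x-rays and 16 between the days. The random variance test left all 100 gene results on their side of the threshold. The dim arrays of the 1 Gy neutron mice at day 7 limit what can be said of their direction.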
